A study of Mus musculus with 10 samples.

Results

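The genes described here are the 10 members of the interleukin-17 and interleukin-20 response axis of keratinocytes, taken by symbol from the 55487 genes of a mouse skin RNA-seq series: Il23a, Il17ra, Il17rc, Il17re, Traf3ip2, Nfkbiz, Zc3h12a, Il19, Il20 and Il24. The choice used no expression value of a sample, but it was made with earlier results of these data known. Of these 10 genes, 7 passed the filter on low counts and were tested with the 17321 genes that did, while Il19, Il20 and Il24 fell below it and are given as counts.

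The series compared skin of 5 mice with a Hamp1 knock-in, which carry the added letters "ker" in their genotype label (KI), with skin of 5 wild-type mice (WT). Its title gives the purpose as the effect of hepcidin overexpression in the skin, hepcidin being the peptide hormone that blocks iron export from cells. Each library came from 1 mouse, and the labels do not give the age, the sex, the strain, the skin site or the promoter that drives the knock-in. Sample titles carry 2 prefixes whose meaning is not given, EAS37 on KI 1, KI 2, WT 1, WT 2 and WT 3, and EAS42 on KI 3, KI 4, KI 5, WT 4 and WT 5, so values are also given within each prefix.

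In this axis, the IL-23 made by myeloid cells, of which Il23a encodes the p19 subunit, maintains lymphocytes that release IL-17. IL-17 binds a receptor on keratinocytes made of IL-17RA with IL-17RC, and the related IL-17C binds IL-17RA with IL-17RE. The adaptor Act1, encoded by Traf3ip2, joins these chains and leads to induction of IkappaB-zeta (Nfkbiz), a nuclear cofactor of NF-kappaB that switches on antimicrobial and chemokine genes, and of Regnase-1 (Zc3h12a), an RNase that degrades inflammatory mRNAs and limits the response. IL-19, IL-20 and IL-24 are cytokines that act on keratinocytes through IL-20 receptors and STAT3, and epidermal thickening is known to follow their action in psoriasis.

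The libraries held between 18.96 and 26.43 M expected counts each. Levels are CPM, that is, counts in 1 M, on library sizes scaled by the trimmed mean of M values. Hamp, the gene of hepcidin, averaged 108.9 ± 34.31 CPM in KI skin and 2.458 ± 0.615 CPM in WT skin (SD, n = 5 each), and each KI library was above each WT library. Across all genes 30.9% passed the test, 15.6% as higher in KI skin and 15.3% as lower, in edgeR's quasi-likelihood test at a Benjamini-Hochberg adjusted p under 0.05. The groups did not overlap for 20.3% of genes, 10.7% with every KI library above every WT library and 9.65% with every KI library below. The median log2 fold change of all tested genes was -0.01. Of the 7 tested members 4 passed as higher and 0 as lower, a description only, since Il23a was tested through its KI libraries alone. The summed level of 14 skeletal muscle markers was 3159 to 32490 CPM in KI libraries and 30120 to 53130 CPM in WT libraries. Of these 14 markers, 3 passed as lower and 0 as higher. Their mean log2 CPM, used below as a covariate called the muscle level, was 7.28 to 10.7 in KI libraries and 10.63 to 11.37 in WT libraries. It was thus largely confounded with genotype, and a fit with it cannot separate the 2. A call lost in that fit therefore assigns nothing to muscle content. The 12 keratinocyte markers summed to between 22520 and 37590 CPM in KI libraries and between 22670 and 24850 CPM in WT libraries, with 4 higher and 1 lower, so the labelled tissue had its defining cells in every library. In whole skin, a change in the number of cells of a type and a change in RNA per cell cannot be told apart, and no value here is of keratinocytes alone.

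Promoter windows of 300 bases, from 250 before to 50 after the start, stood in RefSeq's table on GRCm38.p6 for 5 of the 10 members. Those of Zc3h12a, Il19 and Il20 are shown, because the RNase gene rose and because the neighbouring cytokine genes had most of their counts in KI skin. Capitals mark matches, on either strand, to 3 of the 4 forms searched: GGGNNNNNCC (a form of the NF-kappaB site), TTCNNNGAA (STAT) and TTNNGNAA (C/EBP). The 4th form was TGANTCA (AP-1). The windows read, 5′ to 3′ on the gene's strand:
Zc3h12a: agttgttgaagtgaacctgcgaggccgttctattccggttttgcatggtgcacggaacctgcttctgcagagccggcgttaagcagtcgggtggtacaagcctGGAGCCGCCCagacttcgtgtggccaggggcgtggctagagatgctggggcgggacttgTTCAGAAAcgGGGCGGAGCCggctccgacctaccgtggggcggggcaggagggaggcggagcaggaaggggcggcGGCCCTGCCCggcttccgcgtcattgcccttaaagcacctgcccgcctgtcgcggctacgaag
Il19: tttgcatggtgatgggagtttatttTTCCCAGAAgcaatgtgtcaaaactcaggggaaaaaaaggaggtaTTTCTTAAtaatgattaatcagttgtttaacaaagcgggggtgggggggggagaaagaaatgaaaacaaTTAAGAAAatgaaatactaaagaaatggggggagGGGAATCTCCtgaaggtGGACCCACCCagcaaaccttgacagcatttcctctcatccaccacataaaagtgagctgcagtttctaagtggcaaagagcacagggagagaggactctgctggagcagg
Il20: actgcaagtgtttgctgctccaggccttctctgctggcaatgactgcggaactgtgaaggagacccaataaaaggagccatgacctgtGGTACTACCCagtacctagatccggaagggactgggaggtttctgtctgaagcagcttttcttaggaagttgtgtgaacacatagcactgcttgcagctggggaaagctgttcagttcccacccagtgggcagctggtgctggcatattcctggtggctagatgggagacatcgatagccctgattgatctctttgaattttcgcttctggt

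The Zc3h12a window, chr4:125127832-125128131 on the minus strand, held 65.7% G and C. It had 3 matches to the NF-kappaB form, beginning 147, 78 and 13 bases before the start, and 1 to the C/EBP form, beginning 88 bases before it. The Il19 window, chr1:130940066-130940365 on the minus strand, held 44.0% G and C. It had 2 matches to the NF-kappaB form at 77 and 60 bases, 1 to the STAT form at 225 bases and 2 to the C/EBP form at 180 and 111 bases before the start. The Il20 window, chr1:130911247-130911546 on the minus strand, held 51.3% G and C and a single match to the NF-kappaB form, 162 bases before RefSeq's start. The Il20 gene span given below reaches 130911451, upstream of that start, so part of the stretch before it lies inside the annotated gene. No match to the AP-1 form stood in these windows. The windows not shown belong to Il17rc and Il17re, which did not pass the test. That of Il17rc held 4 matches to the NF-kappaB form, and that of Il17re held 1 to the C/EBP form. Matches were thus not particular to the genes that rose. Of 32851 mouse windows of the same length, 50.8% held the NF-kappaB form, 40.7% the C/EBP form, 8.3% the STAT form and 7.81% the AP-1 form, and a match describes letters only.

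Il23a, on chromosome 10 at 128296139 to 128298752 (GRCm38, as are all gene positions here), rose in KI skin. Its counts were 23, 27, 44, 22 and 26 in KI 1 to KI 5, against 6, 4, 3, 2 and 6 in WT 1 to WT 5. The lowest KI library stood well above the highest WT library. The mean was 1.32 ± 0.366 CPM in KI skin and 0.189 ± 0.0890 CPM in WT skin (SD, n = 5 each), a log2 fold change of 2.8 ± 0.37 (SE, 95% interval 1.98 to 3.62, adjusted p = 0.000791 in edgeR's quasi-likelihood test). The summed counts of 142 in KI skin and 21 in WT skin gave a depth-scaled ratio of 7.29 (exact binomial 95% interval 4.59 to 12.1, counting error only). The log2 fold change was 2.62 within EAS37 and 3.0 within EAS42. The filter asked for at least 0.454 CPM in 5 libraries, which Il23a reached in 5 KI and 0 WT libraries, so its place among the called genes carries no separate weight.

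The genes that work beside Il23a gave few counts. Il12b, which encodes the p40 subunit that p19 needs to form IL-23, had 1 count in KI skin and 3 in WT skin over all libraries. Il23r, the IL-23-specific receptor chain, had 17 counts in KI skin and 17 in WT skin. Il12rb1, the receptor chain shared by IL-12 and IL-23, averaged 0.811 CPM in KI skin and 0.288 CPM in WT skin, with a log2 fold change of 1.46 ± 0.36 (adjusted p = 0.013 in edgeR). It too reached the filter's minimum in 5 KI and 0 WT libraries, so it had to differ to be tested. The log2 fold change was 1.13 within EAS37 alone (adjusted p = 0.163), 1.41 within EAS42 alone (0.0997) and 1.90 with the muscle level as a covariate (0.0728), with the call lost in each. Of the 8 IL-23 and IL-12 partners and receptors written in the list, 5 were tested. Il12rb1 was the 1 called higher, 0 fell and 4 did not pass, with a median log2 fold change of -0.15. Across all genes 15.6% were called higher and 15.3% lower.

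Some markers of myeloid cells and T cells also differed between the groups. The 14 macrophage, dendritic and Langerhans cell markers summed to 829.5 to 1147 CPM in KI libraries and 553.5 to 701 CPM in WT libraries. In this list 6 of 14 were higher and 0 lower, beside 15.6% and 15.3% of all genes. Epcam alone averaged 276.6 CPM in KI skin and 131.8 CPM in WT skin. The 8 that did not pass included Cd68, Csf1r, Lyz2, Adgre1, Mrc1 and Cd163. The 14 T and NK cell markers summed to 177 to 217 CPM in KI libraries and 91.2 to 154 CPM in WT libraries. Here 9 of 14 were higher and 0 lower, against the same shares of all genes. Trac, which was called higher, and Cd28, which was not, needed KI libraries to pass the filter. Thy1 alone averaged 108.7 CPM in KI skin and 80.7 CPM in WT skin, a large part of this sum. The 14 neutrophil markers summed to 84.3 to 178 CPM in KI libraries and 12.5 to 19.9 CPM in WT libraries, with Ly6g at 0 in every library. Of these 14, 6 were tested and 5 were called higher, but 3 of the 6 needed KI libraries to pass the filter. Much of the sum came from Mmp9, S100a8 and S100a9. S100a8 and S100a9 also stand in the list of IL-17-induced keratinocyte genes, so this sum does not show neutrophils alone. Among the 8 untested markers, summed counts in KI and WT skin were 30 and 3 for Mmp8, 13 and 5 for Retnlg, and 10 and 0 for Ngp. They were 1 and 0 for Mpo, 9 and 8 for Ltf, 3 and 3 for Elane, and 7 and 21 for Camp. The part of these cells in the level of Il23a and of the other members was not tested.

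**Figure D1:**
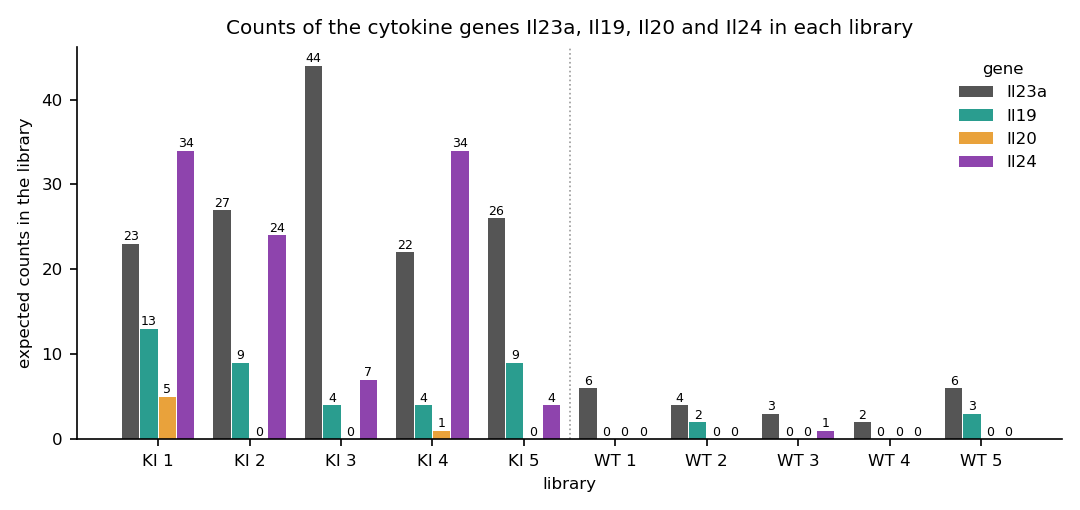
Rounded expected counts of Il23a, Il19, Il20 and Il24 (vertical axis) in each of the 10 libraries, KI on the left and WT on the right of the dotted line, with each count printed above its bar. Il24 reached 34 counts in KI 1 and in KI 4 and had at most 1 count in any WT library, while Il23a had 22 to 44 counts in KI libraries and 2 to 6 in WT libraries.

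The IL-17 ligands that open the axis were at or near 0. Il17a had 0 counts in every library, as had Il22, the cytokine of type 17 lymphocytes that shares signalling with the IL-20 group. A floor of 3 counts summed over a group allows up to 0.0280 CPM in KI skin and 0.0260 CPM in WT skin for each of these genes. Il17f, the closest relative of Il17a, had 3 counts in KI skin and 7 in WT skin. Il17c, the epithelial ligand of the IL-17RA and IL-17RE pair, had 4 counts in KI skin and 8 in WT skin. These counts are too few for a difference to be detectable at this depth. Among 12 markers of gamma delta T and type 17 lymphocytes, 7 were tested, 2 rose and 1 fell, beside 15.6% and 15.3% of all genes. The 12 summed to 65.5 to 106 CPM in KI libraries and 98.6 to 112 CPM in WT libraries.

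Of the 8 other IL-17 ligand and receptor genes, 4 were tested, with 1 called higher, 1 called lower and 2 not passing. Their median log2 fold change was -0.36. The shares over all genes were 15.6% higher and 15.3% lower. Il17b, a ligand of IL-17RB, averaged 0.867 ± 0.261 CPM in KI skin and 0.328 ± 0.146 CPM in WT skin (log2 fold change 1.40, adjusted p = 0.0161 in edgeR). It is the 1 called higher, and it reached the filter's minimum in 5 KI libraries and 1 WT library. Il17rd, a receptor chain also known to restrain growth factor signalling, fell to 12.7 ± 2.88 CPM in KI skin, against 20.1 ± 1.32 CPM in WT skin (log2 fold change -0.66, adjusted p = 0.0105 in edgeR). Within EAS42 alone neither was called, at 1.69 for Il17b (adjusted p = 0.0968) and -0.45 for Il17rd (0.0549). With the muscle level as a covariate neither was called, at 0.91 for Il17b (adjusted p = 0.359) and -0.56 for Il17rd (0.217).

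None of the 3 IL-17 receptor chains passed the test in either direction. Il17ra, the shared signalling chain, lies on chromosome 6 at 120463247 to 120487559. It had 43.96, 48.64, 37.67, 40.17 and 43.68 CPM in KI 1 to KI 5, against 38.26, 37.84, 39.22, 32.45 and 33.06 CPM in WT 1 to WT 5. The groups overlapped, because KI 3 was below WT 1, WT 2 and WT 3, yet within each prefix every KI library was above every WT library. The mean was 42.8 ± 4.17 CPM in KI skin and 36.2 ± 3.16 CPM in WT skin, a log2 fold change of 0.24 ± 0.09 (95% interval 0.05 to 0.44, adjusted p = 0.0565 in edgeR). The log2 fold change was 0.27 within EAS37 and 0.31 within EAS42, and with the prefix as a block it passed (0.287, adjusted p = 0.0069). With the muscle level as a covariate it was 0.071 (adjusted p = 0.771).

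Il17rc, the chain that IL-17RA needs to respond to IL-17A and IL-17F, lies on the plus strand of chromosome 6 at 113471427 to 113483140. Its levels were 92.2, 92.13, 79.65, 90.83 and 100.5 CPM in KI 1 to KI 5, against 72.51, 49.96, 72.52, 89.32 and 95.02 CPM in WT 1 to WT 5. The groups overlapped, and WT 2 was far below the other libraries. The log2 fold change was 0.26 ± 0.15 (95% interval -0.06 to 0.59, adjusted p = 0.197 in edgeR), and without WT 2 it was 0.145 (adjusted p = 0.306). It was 0.50 within EAS37 and -0.03 within EAS42.

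Il17re, the chain that pairs with IL-17RA for IL-17C, ends 669 bases before Il17rc on the same strand, at 113458484 to 113470758. It had 25.69, 24.37, 25.64, 25.35 and 32.53 CPM in KI 1 to KI 5, against 35.92, 27.84, 29.34, 26.12 and 29.76 CPM in WT 1 to WT 5. KI 5 stood above the other KI libraries and inside the WT range. The log2 fold change was -0.16 ± 0.11 (95% interval -0.39 to 0.08, adjusted p = 0.281 in edgeR), with -0.31 within EAS37 and -0.01 within EAS42.

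**Figure D2:**
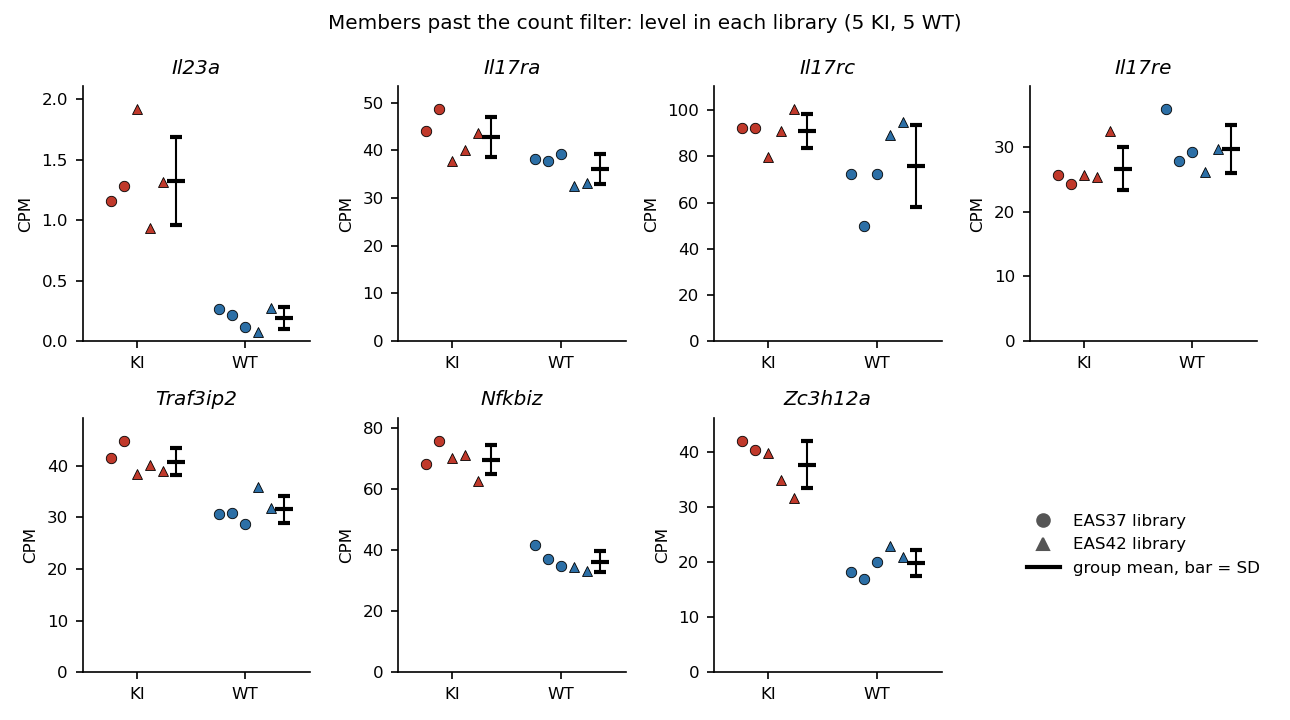
Level in CPM (vertical axes, starting at 0) of the 7 members past the count filter, 1 point per library, KI left of WT, with circles for EAS37, triangles for EAS42 and bars for the group mean and SD. Il23a, Traf3ip2, Nfkbiz and Zc3h12a had every KI library above every WT library, and the 3 receptor chains overlapped.

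The balance of the receptor chains within a library does not depend on library size. It was taken as a ratio of TPM values, transcripts per M, which are scaled by transcript length. Il17re over Il17ra was 1.24, 1.072, 1.489, 1.347 and 1.481 in KI 1 to KI 5, against 1.848, 1.478, 1.543, 1.743 and 2.027 in WT 1 to WT 5. The groups overlapped only in that WT 2 was below KI 3 and KI 5, and within each prefix the KI ratios were all below the WT ratios. The mean log2 ratio was 0.40 ± 0.20 in KI skin and 0.78 ± 0.19 in WT skin (SD, n = 5 each), a difference of -0.38 (exact two-sided permutation test, p = 0.0238, and 0.0476 adjusted over the 2 ratios compared). The difference was -0.49 within EAS37 and -0.39 within EAS42, and without KI 2 it was -0.309 (exact permutation p = 0.0556).

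The ratio of Il17rc to Il17ra ranged from 6.22 to 7.64 in KI libraries and from 4.0 to 9.6 in WT libraries, so the KI range lay inside the WT range. The mean log2 ratio differed by 0.04 (exact two-sided permutation test, p = 0.921 before and after adjustment). The prefixes gave opposite signs, with 0.26 within EAS37 and -0.38 within EAS42. With 5 against 5 libraries, the smallest p that this test can give is 0.00794.

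**Figure D3:**
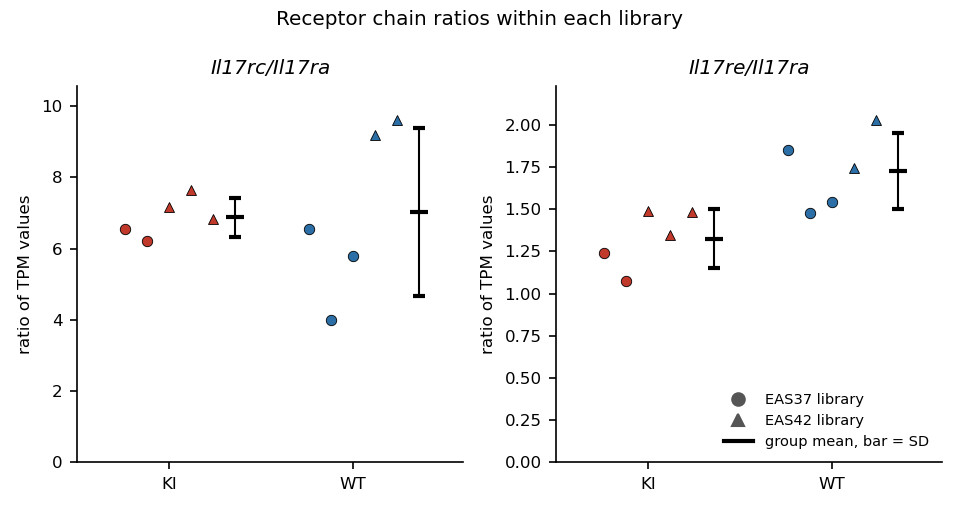
Ratio of TPM values of Il17rc to Il17ra (left) and of Il17re to Il17ra (right) in each library, on linear axes from 0, KI left of WT, with circles for EAS37, triangles for EAS42 and bars for the group mean and SD. The Il17re to Il17ra ratio was 1.07 to 1.49 in KI libraries and 1.48 to 2.03 in WT libraries, while the Il17rc to Il17ra ratio of KI libraries lay inside the WT range.

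All 3 members downstream of the receptor rose in KI skin. Traf3ip2, on chromosome 10 at 39612934 to 39655307, had 41.43, 44.83, 38.32, 40.21 and 38.87 CPM in KI 1 to KI 5, against 30.58, 30.8, 28.68, 35.83 and 31.78 CPM in WT 1 to WT 5. The groups did not overlap, and WT 4 came within a few CPM of the lowest KI library. Means of 40.7 ± 2.59 CPM in KI skin and 31.5 ± 2.65 CPM in WT skin gave a log2 fold change of 0.37 ± 0.08 (95% interval 0.20 to 0.54, adjusted p = 0.0062 in edgeR). It was 0.52 within EAS37 and 0.21 within EAS42. The call was lost in a fit of EAS42 alone (0.200, adjusted p = 0.239) and with the muscle level as a covariate (0.272, adjusted p = 0.206).

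The Traf3ip2 value is uncertain for a second reason. The antisense gene E130307A14Rik overlaps it over 33896 bases and Gm16365 over 749 bases, and the strand setting of the counting is not given. E130307A14Rik averaged 6.14 CPM in KI skin and 8.59 CPM in WT skin, and Gm16365 had 54 counts in KI skin and 121 in WT skin.

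Nfkbiz, on chromosome 16 at 55811375 to 55838899, rose in every KI library relative to every WT library. It had 68.33, 76, 70.24, 71.23 and 62.79 CPM in KI 1 to KI 5, against 41.92, 37.04, 34.9, 34.65 and 33.25 CPM in WT 1 to WT 5. The distance between the groups exceeded the spread within either. The mean was 69.7 ± 4.8 CPM in KI skin and 36.4 ± 3.4 CPM in WT skin, 1.92-fold higher, with a log2 fold change of 0.94 ± 0.08 (95% interval 0.76 to 1.12, adjusted p = 7.97e-05 in edgeR). The effect was 0.93 within EAS37 and 1.0 within EAS42, and 0.83 with the muscle level as a covariate (adjusted p = 0.00332).

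Zc3h12a, on chromosome 4 at 125118423 to 125127840, was 1.90-fold higher in KI skin. Its levels were 41.99, 40.21, 39.67, 34.83 and 31.62 CPM in KI 1 to KI 5, against 18.23, 16.88, 19.96, 22.94 and 21 CPM in WT 1 to WT 5. The lowest KI and highest WT libraries, KI 5 and WT 4, both carried the EAS42 prefix. The mean was 37.7 ± 4.29 CPM in KI skin and 19.8 ± 2.36 CPM in WT skin, a log2 fold change of 0.93 ± 0.11 (95% interval 0.69 to 1.16, adjusted p = 0.000412 in edgeR). It was 1.16 within EAS37 and 0.69 within EAS42.

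The KI effect was also compared between the prefixes in a model with an interaction. No member passed that test, and the smallest adjusted p among the 7 was 0.191, for Zc3h12a. Over all genes 0.866% passed (150 genes, against 3066 at an unadjusted p under 0.05).

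**Figure D4:**
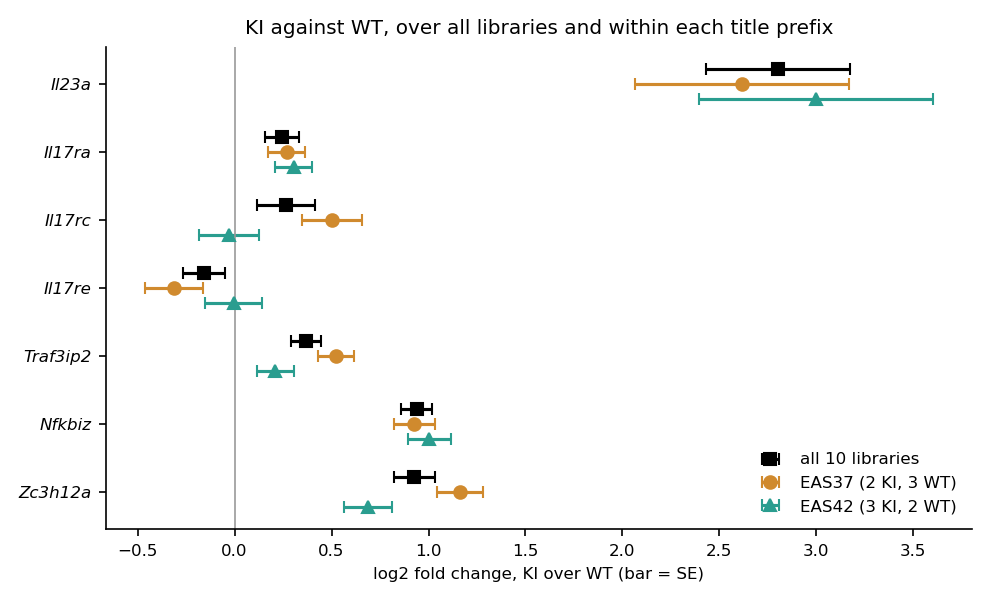
Log2 fold change of KI over WT (horizontal axis, bars are SE) for the 7 members past the count filter, over all 10 libraries (squares), within EAS37 (circles) and within EAS42 (triangles). Il23a, Nfkbiz, Zc3h12a and Traf3ip2 were above 0 in both prefixes, while Il17rc was 0.50 in EAS37 and -0.03 in EAS42.

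The genes of IL-19, IL-20 and IL-24 form a cluster on the minus strand of chromosome 1, with Il24 at 130882074 to 130887454, Il20 at 130906985 to 130911451 and Il19 at 130932656 to 130940115. Gaps of 19531 and 21205 bases separate them, and Il10 follows 79730 bases after Il19. Il24 had 34, 24, 7, 34 and 4 counts in KI 1 to KI 5, against 0, 0, 1, 0 and 0 in WT 1 to WT 5. Every KI library was above every WT library, and the KI libraries themselves spread widely, with KI 3 and KI 5 lowest. In CPM the KI levels were 1.716, 1.142, 0.3052, 1.439 and 0.2027. The sums of 103 counts in KI skin and 1 in WT skin gave a depth-scaled ratio of 111 with an exact binomial 95% interval of 19.5 to 4426, which covers counting error only.

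In a fit without the count filter, where 7.44% of 31097 genes passed as higher in KI skin, Il24 passed (adjusted p = 0.000475 in edgeR). With the muscle level as a covariate it did not pass (log2 fold change 4.69, adjusted p = 0.0558, against 6.08 without it). The muscle level, the mean log2 CPM of the 14 markers, was 9.06, 7.28, 10.7, 9.06 and 10.08 in KI 1 to KI 5, against 10.63, 11.2, 10.64, 11.04 and 11.37 in WT 1 to WT 5. KI 3 and KI 5, the KI libraries with the least Il24, had the highest muscle levels of the KI group. The fit with this covariate cannot separate muscle content from genotype, and the part of muscle content in the Il24 level was not otherwise tested.

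Il19 had 13, 9, 4, 4 and 9 counts in KI 1 to KI 5, against 0, 2, 0, 0 and 3 in WT 1 to WT 5. The groups did not overlap, though the lowest KI libraries were only 1 count above WT 5. The sums of 39 counts in KI skin and 5 in WT skin gave a ratio of 8.41 (exact binomial 95% interval 3.31 to 27.3). Without the count filter Il19 passed narrowly (log2 fold change 2.90 ± 0.90, adjusted p = 0.0408 in edgeR). That call was lost within EAS42 alone (1.93, adjusted p = 0.463) and with the muscle level as a covariate (2.81 ± 1.27, adjusted p = 0.359), where the fold stayed close and its SE grew. It was also lost without KI 1 (adjusted p = 0.115), KI 2 (0.0826), KI 4 (0.0502), KI 5 (0.06), WT 1 (0.0812), WT 3 (0.0834) or WT 4 (0.0747).

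Il20 was nearly absent. It had 5, 0, 0, 1 and 0 counts in KI 1 to KI 5, and 0 in every WT library, where 3 counts over the group would correspond to 0.0260 CPM. At 6 counts in total, no fold change was taken. Of the counts of these 3 cytokine genes, Il24 held 65.4% in KI 1 (exact binomial 95% interval 50.9 to 78.0), 72.7% in KI 2 (54.5 to 86.7), 63.6% in KI 3 (30.8 to 89.1), 87.2% in KI 4 (72.6 to 95.7) and 30.8% in KI 5 (9.09 to 61.4). Among KI libraries Il19 outnumbered Il24 in KI 5 alone, where the interval still reached above equal shares. WT 2 and WT 5 had Il19 counts and no Il24 count.

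The receptor chains of these cytokines had no call in either direction over all libraries. Il20ra, a chain of the type I IL-20 receptor, averaged 18.9 ± 7.91 CPM in KI skin and 28.4 ± 8.59 CPM in WT skin (log2 fold change -0.59, adjusted p = 0.144 in edgeR). It passed as lower with the prefix as a block (-0.75, adjusted p = 0.00983), within EAS37 alone (-0.76, adjusted p = 0.0417) and without KI 5 (-0.85, adjusted p = 0.0232), and was -0.20 with the muscle level as a covariate (0.831). Il20rb, the chain common to both IL-20 receptors, averaged 126 ± 7.66 CPM in KI skin and 153 ± 33.5 CPM in WT skin (log2 fold change -0.28, adjusted p = 0.141 in edgeR). It passed as lower within EAS42 alone (-0.585, adjusted p = 0.0121) and without WT 2 (-0.391, adjusted p = 0.0157), and was -0.01 within EAS37 alone (0.955). Il22ra1, which pairs with IL-20RB for IL-20 and IL-24, averaged 8.16 CPM in KI skin and 7.99 CPM in WT skin (adjusted p = 0.921 in edgeR). Of 11 receptors and partners of IL-20 and IL-22, 9 were tested, 4 rose, 0 fell and 5 did not pass. Their median log2 fold change was 0.03. The shares called over all genes were 15.6% higher and 15.3% lower.

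The 4 that rose act in signalling shared with the IL-10 family. Il10ra, the IL-10-specific chain, averaged 10.04 ± 1.46 CPM in KI skin and 4.78 ± 0.933 CPM in WT skin (log2 fold change 1.07, adjusted p = 0.00172 in edgeR). Il10rb, the chain shared with IL-22, averaged 31.7 CPM in KI skin and 21.0 CPM in WT skin (0.59, adjusted p = 0.00247). Stat3, the transcription factor below these receptors, averaged 262 ± 39.6 CPM in KI skin and 174 ± 11.3 CPM in WT skin (0.59, adjusted p = 0.00311). Socs3, its feedback inhibitor, averaged 58.5 CPM in KI skin and 37.8 CPM in WT skin (0.63, adjusted p = 0.0234). Its effect was 1.1 within EAS37 and 0.15 within EAS42 (interaction adjusted p = 0.0661), and its call was lost without KI 1 (0.0649), KI 2 (0.0532), WT 1 (0.0549) or WT 3 (0.0544). With the muscle level as a covariate none of the 4 was called, at 0.99 for Il10ra (adjusted p = 0.0533), 0.38 for Il10rb (0.117), 0.43 for Stat3 (0.134) and 0.50 for Socs3 (0.345).

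The relay between the receptor and transcription moved little as a group. Of 21 relay genes, all tested, 4 rose, 1 fell and 16 did not pass, with a median log2 fold change of 0.06, beside 15.6% and 15.3% of all genes. Cebpb, a transcription factor that works with IkappaB-zeta at IL-17 target genes, rose to 160 ± 27.6 CPM in KI skin, against 70.5 ± 8.91 CPM in WT skin (1.18, adjusted p = 0.000314 in edgeR). Tbk1, a kinase of the IKK family, rose by 0.32 (adjusted p = 0.00913), and Nfkb1, which encodes the p50 subunit of NF-kappaB, by 0.28 (0.0135). Ikbke, which encodes the related kinase IKK-epsilon, fell by 0.63 on the log2 scale (adjusted p = 0.0154). Of these 4 calls, that of Cebpb held with the muscle level as a covariate (1.03, adjusted p = 0.0127). The other 3 were 0.25 for Tbk1 (adjusted p = 0.224), 0.25 for Nfkb1 (0.228) and -0.40 for Ikbke (0.353). Within EAS37 alone the calls were lost for Tbk1 at 0.30 (adjusted p = 0.0673), Nfkb1 at 0.25 (0.0825) and Ikbke at -0.76 (0.0612), and within EAS42 alone for Nfkb1 at 0.345 (0.0819), with sizes close to those over all libraries.

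Of 15 genes of mRNA control and feedback, all tested, 4 rose, 2 fell and 9 did not pass. Their median log2 fold change was 0.09, and over all genes 15.6% were called higher and 15.3% lower. Bcl3 and Nfkbid, which encode atypical nuclear IkappaB proteins like that of Nfkbiz, both rose. Bcl3 averaged 19.96 ± 6.22 CPM in KI skin and 3.97 ± 1.08 CPM in WT skin (2.32, adjusted p = 0.0004 in edgeR). Nfkbid averaged 4.40 ± 0.631 CPM in KI skin and 2.05 ± 0.460 CPM in WT skin (1.1, adjusted p = 0.00316). Nfkbia, the classical cytoplasmic inhibitor of NF-kappaB, fell to 85.3 ± 10.2 CPM in KI skin, against 123 ± 23.1 CPM in WT skin (-0.52, adjusted p = 0.0133). Tnip1, a partner of the ubiquitin-editing protein A20, rose by 0.29 (adjusted p = 0.0157). Of these 4 calls, that of Bcl3 held with the muscle level as a covariate (1.89, adjusted p = 0.0127). The other 3 were 1.01 for Nfkbid (adjusted p = 0.0893), -0.35 for Nfkbia (0.323) and 0.33 for Tnip1 (0.156). Nfkbid was 0.97 within EAS42 alone (adjusted p = 0.0526), and Tnip1 was 0.30 within EAS37 alone (0.127) and 0.32 within EAS42 alone (0.0713), close to their values over all libraries but not called.

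Genes known to be induced by IL-17 in keratinocytes had large values in KI skin, but of the 22 written, 12 were tested, and 7 of those needed KI libraries to pass the count filter. Among the 12, 11 rose, 0 fell and 1 did not pass, while over all genes 15.6% were called higher and 15.3% lower. Il1f8 (IL-36 beta) averaged 29.1 ± 7.85 CPM in KI skin and 2.84 ± 1.33 CPM in WT skin (adjusted p = 0.000243 in edgeR). S100a8, an alarmin that neutrophils also express, averaged 30.6 ± 18.7 CPM in KI skin and 1.40 ± 0.715 CPM in WT skin (adjusted p = 0.000532). Ccl20, the chemokine that recruits CCR6-bearing lymphocytes and 1 of those 7, averaged 6.42 ± 2.0 CPM in KI skin and 0.365 ± 0.268 CPM in WT skin (adjusted p = 0.000667). Lcn2, the siderophore-binding lipocalin, averaged 36.3 ± 20.4 CPM in KI skin and 1.5 ± 1.37 CPM in WT skin (adjusted p = 0.00114). S100a7a was the tested gene that did not pass, with 2.85 ± 2.81 CPM in KI skin and 9.8 ± 13.8 CPM in WT skin (adjusted p = 0.163). With the muscle level as a covariate 7 of the list were still called higher.

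**Figure D5:**
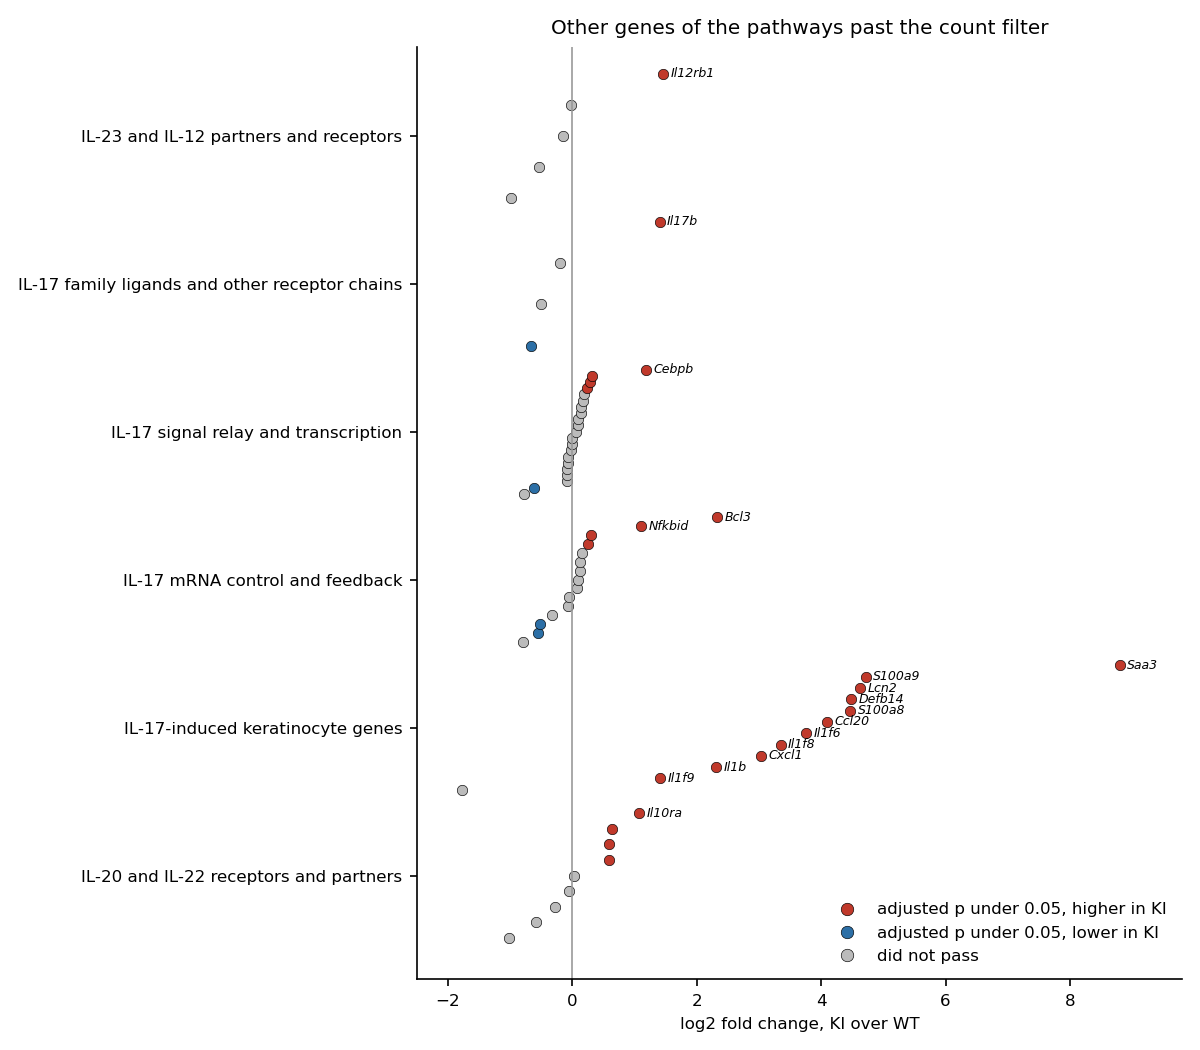
Log2 fold change of KI over WT (horizontal axis) for each tested gene of 6 pathway lists, 1 point per gene, red where it passed as higher in KI, blue where it passed as lower and grey where it did not pass, with names for passed genes beyond 1 on the log2 scale. Most relay genes lie near 0, and the receptor lists spread from Il22ra2 at -1.02 to Il12rb1 at 1.46. Of the 12 tested IL-17-induced genes 11 lie above 0, and 7 of the 12 needed KI libraries to pass the count filter.

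Compared per transcript length, in TPM, the members spanned a wide range of levels. In KI skin Il17rc was highest at 75.5 ± 6.64 TPM, followed by Traf3ip2 at 47.8 ± 5.08, Nfkbiz at 26.2 ± 2.40, Zc3h12a at 20.9 ± 2.03, Il17re at 14.5 ± 2.09 and Il17ra at 10.99 ± 1.04 TPM. The cytokine genes followed, with Il23a at 1.41 ± 0.437, Il24 at 1.30 ± 0.846, Il19 at 0.664 ± 0.397 and Il20 at 0.068 TPM. Nfkbiz and Zc3h12a overlapped, as did Il23a with Il24 and Il24 with Il19.

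In WT skin the order began with Il17rc at 69.2 ± 16.9 and Traf3ip2 at 38.9 ± 3.09 TPM. Il17re followed at 17.3 ± 1.97 TPM, above Nfkbiz at 14.5 ± 1.71, Zc3h12a at 11.7 ± 0.548 and Il17ra at 10.1 ± 1.136 TPM. Il17re overlapped Nfkbiz, and Zc3h12a overlapped Il17ra. Of the cytokine genes there, Il23a had 0.200 ± 0.0822 TPM, Il19 0.12, Il24 0.01 and Il20 0 TPM. Il23a and Il19 overlapped, with Il19 above Il23a in WT 2 and WT 5.

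Among 15673 genes with a mean of at least 1 CPM, the 2 genes most like each tested member were taken by the Pearson correlation of log2 CPM over the 10 libraries. Those of Nfkbiz were Cdcp1 (r = 0.986) and Slc2a1 (r = 0.983), which fell to 0.749 and 0.673 once genotype means were removed. For Zc3h12a they were Taf1d (0.988) and Ticrr (0.986), and 0.872 for each with genotype removed. For Traf3ip2 they were Il1rl2, which encodes the IL-36 receptor (0.976, and 0.9 with genotype removed), and Ifi202b (0.976, and 0.878). For Il23a they were Pcgf6 (0.977, and 0.751) and Slurp2 (0.966, and 0.625).

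The receptor chains were most like genes that tracked them within the groups as well. Il17rc was most like Chit1 (r = 0.981 with and without genotype means) and Ptgs1 (0.951, and 0.936), where Spearman's rho was lower, at 0.77 and 0.733, and WT 2 lies far from the other libraries. Il17ra was most like Gm2792 (0.971, and 0.94) and Pdia4 (0.963, and 0.924), and Il17re like Decr2 (0.933, and 0.914) and Nfu1 (0.931, and 0.912). These are the highest of many values over libraries that share genotype, prefix and tissue makeup, and describe these 10 libraries only.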

How the data were processed

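Per the labels' protocols, trizol RNA (250 ng) went into Illumina stranded mRNA libraries, 1 per mouse. Tools in the submitters' processing notes are STAR 2.5.2b, FastQC, featureCounts, Picard 2.8.1 and DESeq2 1.14.1, with GRCm38 as build and no roles. The deposited tables have RSEM's columns, per the file headers, and hold expected counts, TPM, FPKM and lengths made by the authors. The sources used here name no RSEM version, annotation release or strand setting. Deposited expected counts (10.4% to 12.2% fractional) were rounded to whole numbers. TPM values deposited by the authors gave levels per length, and the deposited FPKM values were not used.

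Names and positions came from GENCODE M21 (55141 of 55487 identifiers matched, the other 346 held 0.0507% of counts). Genes were filtered by edgeR's filterByExpr (minimum count 10, minimum total 15), which removed 0.127% of counts, and tested with edgeR 4.0.16 in R 4.3.3 (quasi-likelihood, robust, TMM) with Benjamini-Hochberg adjustment over all tested genes at 0.05. Replicate numbers follow accession order and pair nothing. The lowest chi-square per gene between any 2 libraries was 29.7, so none was a copy. The script was tested on simulated data. Alternatives used DESeq2 1.42.0, limma 3.58.1, other filters and scaling, each prefix alone or as a block, the muscle level as a covariate, and each library left out.

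The members and all gene lists were chosen with earlier results of these data known. Named genes are the members, Hamp, up to 4 genes per list with the smallest p, a fixed set of ligands and receptors, the 2 genes most correlated with each tested member, and flanking genes. S100a7a was named after its values were seen. Promoter sequences are from RefSeq (GRCm38.p6). Intervals on counts are 95% exact binomial.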

Additional observations from a re-analysis of the deposited data

Results flagged for a closer look

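In 3 cases a value stood apart within a group of 5 libraries. Il17re in KI 5, at 32.5 CPM, lay farther from the other KI libraries than they did from each other, with a gap of 0.838 of the group's range. Il20 in KI 1, at 0.252 CPM, held 5 of the 6 counts of the gene, with a gap of 0.832 of the range. Il24 in WT 3, at 0.0389 CPM, was the single count of that gene in WT skin, so its gap equals the whole range. In all, 24 groups of 5 libraries were examined in this way, and chance alone marks about 1 in 20 groups of normally spread values. That rate does not hold for groups with few counts, such as those of Il20 and Il24.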

How the results depend on the processing

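Il23a kept its direction and call in 18 of 18 alternatives, and Nfkbiz (0.83 to 0.995) and Zc3h12a (0.677 to 1.18) in 19 of 19. Il23a was not tested at a minimum count of 50. At the default filter it was tested through its KI libraries alone, so its calls there carry no separate weight. Traf3ip2 kept its call in 17 of 19 and Il24 in 16 of 17, with Il19 in 8 of 17. The alternatives that ended the calls of Traf3ip2, Il24 and Il19 are given with those genes. Il17ra passed with DESeq2 (0.249, adjusted p = 0.0335), with the prefix as a block (0.287) and without KI 3 (0.287). Il17rc reversed within EAS42 alone (-0.039), where the cause was not tested. Il22ra1, near 0 over all libraries, had opposite signs in the prefixes, at 0.429 within EAS37 alone and -0.363 within EAS42 alone. With the muscle level as a covariate it was -0.328. It lay between -0.049 and 0.156 with 1 library left out, including -0.005 without KI 1, -0.033 without KI 2, -0.034 without WT 1 and -0.034 without WT 2. The Il17re to Il17ra difference ranged from -0.437 to -0.309 and the Il17rc to Il17ra difference from -0.149 to 0.167 with 1 library left out, the 2nd reversing without KI 4 (-0.002), WT 2 (-0.149) or WT 3 (-0.016). Over all genes, 2699 higher and 2652 lower became 1192 and 1296 within EAS42 alone, which has 5 libraries, and 281 and 127 with the muscle level as a covariate, where the cause was not tested. Genes whose KI effect differed between prefixes numbered 150, 444 without the filter, and 1 to 304 with 1 library left out. No paired analysis was possible because replicate numbers follow accession order and tie no KI mouse to a WT mouse. Counts limit Il19, Il20 and Il24, and with 5 mice a group the SE of 0.15 for Il17rc leaves moderate differences undetected.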

Other observations

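Other interleukin genes below the count filter also differed in their summed counts, and were chosen after their values were seen. Il10, the next gene beyond the IL-20 cluster, had 6, 3, 5, 18 and 3 counts in KI 1 to KI 5, against 0, 3, 2, 1 and 0 in WT 1 to WT 5. Its sums of 35 counts in KI skin and 6 in WT skin gave a ratio of 6.29 (exact binomial 95% interval 2.62 to 18.3), and KI 4 alone held 18 of the 35. Il12a, the subunit that makes IL-12 in place of IL-23 when joined to p40, went the other way, with 0, 1, 2, 4 and 3 counts in KI 1 to KI 5, against 3, 8, 9, 13 and 19 in WT 1 to WT 5. Its sums of 10 counts in KI skin and 52 in WT skin gave a ratio of 0.207 (0.0939 to 0.412). Il25, a ligand of IL-17RB, had 11 counts in KI skin and 33 in WT skin, a ratio of 0.359 (0.164 to 0.729). These intervals cover counting error only, not the spread between mice.

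The genes flanking the tested members were compared with them. Beside Il23a, Stat2 averaged 36.5 ± 2.85 CPM in KI skin and 32.8 ± 4.87 CPM in WT skin (adjusted p = 0.293 in edgeR) and Pan2 66.8 ± 4.35 CPM in KI skin and 68.0 ± 4.88 CPM in WT skin (adjusted p = 0.807), neither of which passed. Meaf6, 5185 bases from Zc3h12a, averaged 28.9 CPM in KI skin and 31.4 CPM in WT skin (adjusted p = 0.243). On its other side Grik3, 362860 bases away, averaged 1.58 ± 0.395 CPM in KI skin and 4.22 ± 3.14 CPM in WT skin. Grik3 passed as lower (log2 fold change -1.40, adjusted p = 0.0474 in edgeR), though its groups overlapped. Nxpe3, 1054 bases from Nfkbiz, averaged 1.22 CPM in KI skin and 1.996 CPM in WT skin (adjusted p = 0.0769), with every KI library below every WT library. Fyn, 47553 bases from Traf3ip2, fell to 26.7 ± 1.62 CPM in KI skin, against 42.4 ± 4.16 CPM in WT skin (log2 fold change -0.66, adjusted p = 0.000535), the opposite direction to Traf3ip2. Creld1, 157 bases beyond Il17rc, fell by 0.43 on the log2 scale (adjusted p = 0.0332). Kdm5a beside Il17ra, Jagn1 beside Il17re and Rev3l beside Traf3ip2 did not pass (adjusted p = 0.130, 0.0780 and 0.0605 in edgeR).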
